A study of Culex pipiens pallens and Culex quinquefasciatus with 12 samples.

Results

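The genes described here encode the proteins of the mitochondrial ribosome, the machine that makes proteins inside the mitochondrion. They were found by words in the gene descriptions deposited with the data: a description was taken if it named a 39S, 28S or mitochondrial ribosomal protein, in whatever order the words stood. This gave 77 of 17757 gene models. By the letter of the protein name, 49 belonged to the large (39S) subunit and 27 to the small (28S) subunit, and 1, described only as 39S ribosomal protein 54, carried no letter. The 77 models carried 66 distinct protein names, since 9 names were shared by several models, 20 models in all.

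Expression was measured by RNA sequencing of whole larvae in 5 libraries of *Culex pipiens quinquefasciatus*, a house mosquito of warm regions, and in 7 libraries of *Culex pipiens pallens*, its East Asian temperate relative. Per the labels, each library came from the total RNA of 30 larvae, pooled before poly(A) selection, and the library kit did not record the strand. The labels give no treatment, strain, larval age or instar, and the series' title speaks of differing resistance levels without assigning a level to any library. Libraries are numbered in accession order within each subspecies, so the numbers only name them; nothing says that the pools came from separate colonies, and p-values measure the spread between these pools.

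The mitochondrial ribosome translates only the few messages of the mitochondrial genome, which encode core subunits of the respiratory chain and ATP synthase. All of its own proteins are encoded in the nucleus, made by the cytosolic ribosome and imported. Some descend from proteins of the bacterial ribosome and others exist only in mitochondria. Insect muscle and other tissues of high respiration depend on it, and in the fruit fly and in humans its loss impairs oxidative phosphorylation.

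The libraries held 3880000 to 5180000 uniquely mapped reads, rounded to the nearest 10000. Values given as CPM are read counts scaled to library size with TMM, with factors of 0.833 (quinquefasciatus 5) to 1.19 (pallens 7). Larval storage proteins, which mark larval fat body and haemolymph, were present in every library, with summed levels of 32280 to 170156 CPM in pallens and 89174 to 161664 CPM in quinquefasciatus. Pallens 1 and quinquefasciatus 5 stood apart: the number of genes called between the subspecies was 57 over all 12 libraries, 230 without pallens 1, 209 without quinquefasciatus 5 and 366 without both. Over many of these genes both lay nearer the other subspecies. Of the 230 genes called without pallens 1, that library was nearer the quinquefasciatus than the pallens mean in 69.1%, and of the 209 called without quinquefasciatus 5, that library was nearer the pallens mean in 67.5%. For each of the other 10 libraries, measured in the same way over 9 to 33 genes, the share was 0% to 24.2%. Of the 366 genes called without both, the shares were 47.0% for pallens 1 and 52.5% for quinquefasciatus 5. Genes gained by leaving out a library tend to be those in which it opposed the difference. Its nearness to the other subspecies is thus partly built in. Leaving out any of the other 10 libraries gave fewer calls than 57, so their shares are no control. Pallens 1 and quinquefasciatus 5 are used here under their labels, and whether these labels are right was not tested. Some of the results that rest on them are given with and without them.

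The models were short and scattered. Their median length was 691 bases (186 to 1761), against 1080 over all gene models. They lay on 73 scaffolds, and only 4 scaffolds held a pair of members. The closest such pair was formed by both L23 models, CPIJ012879 at 382858 to 383481 and CPIJ012880 at 384324 to 384917 on supercont3.406. The files' gene ontology terms placed 28 members in the ribosome or a ribonucleoprotein complex, and 5 members had no term. Positions are those of the files, whose genome build is not given in the sources used here, and they span whole models, with no exons listed.

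A total of 70 members had enough reads to be tested, and the same 70 had reads in all 12 libraries, from 4 to 1185 reads per library. The other 7 had next to none: 2 and 15 reads over all libraries for the L24 models CPIJ000344 and CPIJ012840, 6, 12 and 26 reads for the S26 models CPIJ002495, CPIJ011063 and CPIJ019848, 4 reads for L23 (CPIJ012879), and 1 read for S11 (CPIJ015147). These 7 all carried a name that another model also carried. For L23, S11 and S26 the other model held most of the reads, whereas neither model of L24 was well read. A library without a read allows up to 3 reads, or 0.579 to 0.772 CPM by library totals.

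**Figure D1:**
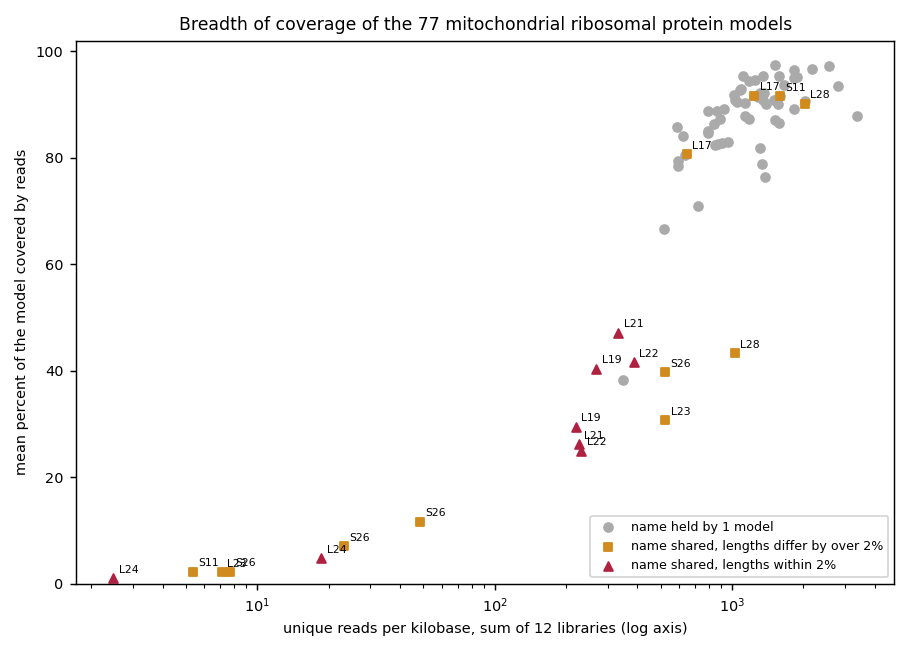
Each point is 1 of the 77 models, with its unique reads per kilobase summed over 12 libraries (horizontal, log axis) against the mean percent of its length covered by reads (vertical). Models whose name is shared with a model of nearly the same length (red triangles: L19, L21, L22, L24) all lie below 50% coverage.

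The tested members were covered over a median of 88.8% of their length. Only 10 tested members had a mean coverage under 50%, and 6 of these were the paired models of L19, L21 and L22, whose lengths differ by no more than 2% within a pair. Because the authors counted unique reads alone, reads shared by near-identical copies were not counted, and the levels of these pairs are uncertain. The sequences of the models were not analysed here. S34 (CPIJ009912) and L46 (CPIJ014785) also overlap a model on the other strand, by 365 and 193 bases, and without strand the reads of both genes cannot be told apart.

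The members were expressed at a moderate and narrow range of levels. On the per-length scale of the deposited RPKM, averaged over 12 libraries, the tested members had a median of 20.6 RPKM, and the middle 50% lay between 14.6 and 28.01 RPKM. All tested genes had a median of 10.9 RPKM. Genes of the respiratory chain and ATP synthase had a median of 137 RPKM and those of the cytosolic ribosome 2252 RPKM. Large-subunit members (median 21.8 RPKM, 46 tested) and small-subunit members (20.1 RPKM, 23 tested) had similar medians.

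The highest level was that of L39 (CPIJ017346), a large-subunit protein that exists only in mitochondria, at 61.1 ± 49.5 RPKM (SD, n = 12). That mean included pallens 1 at 204 RPKM and quinquefasciatus 4 at 108 RPKM, while the remaining libraries lay between 31.0 and 60.7 RPKM. L12 (CPIJ017840), which in bacteria forms the flexible stalk that recruits translation factors, followed at 51.6 ± 16.7 RPKM. L3 (CPIJ017407), which in bacteria reaches toward the peptidyl transferase centre, was next at 47.8 ± 13.2 RPKM. These 3 values did not differ beyond their spread over libraries. The lowest tested levels were those of paired models: L19 (CPIJ019257) at 4.05 ± 1.25 RPKM, L21 (CPIJ015639) at 4.25 ± 1.54 RPKM and L22 (CPIJ019244) at 4.32 ± 1.54 RPKM. All 3 are among the models whose copies share a name and length, so unique reads may understate them.

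**Figure D2:**
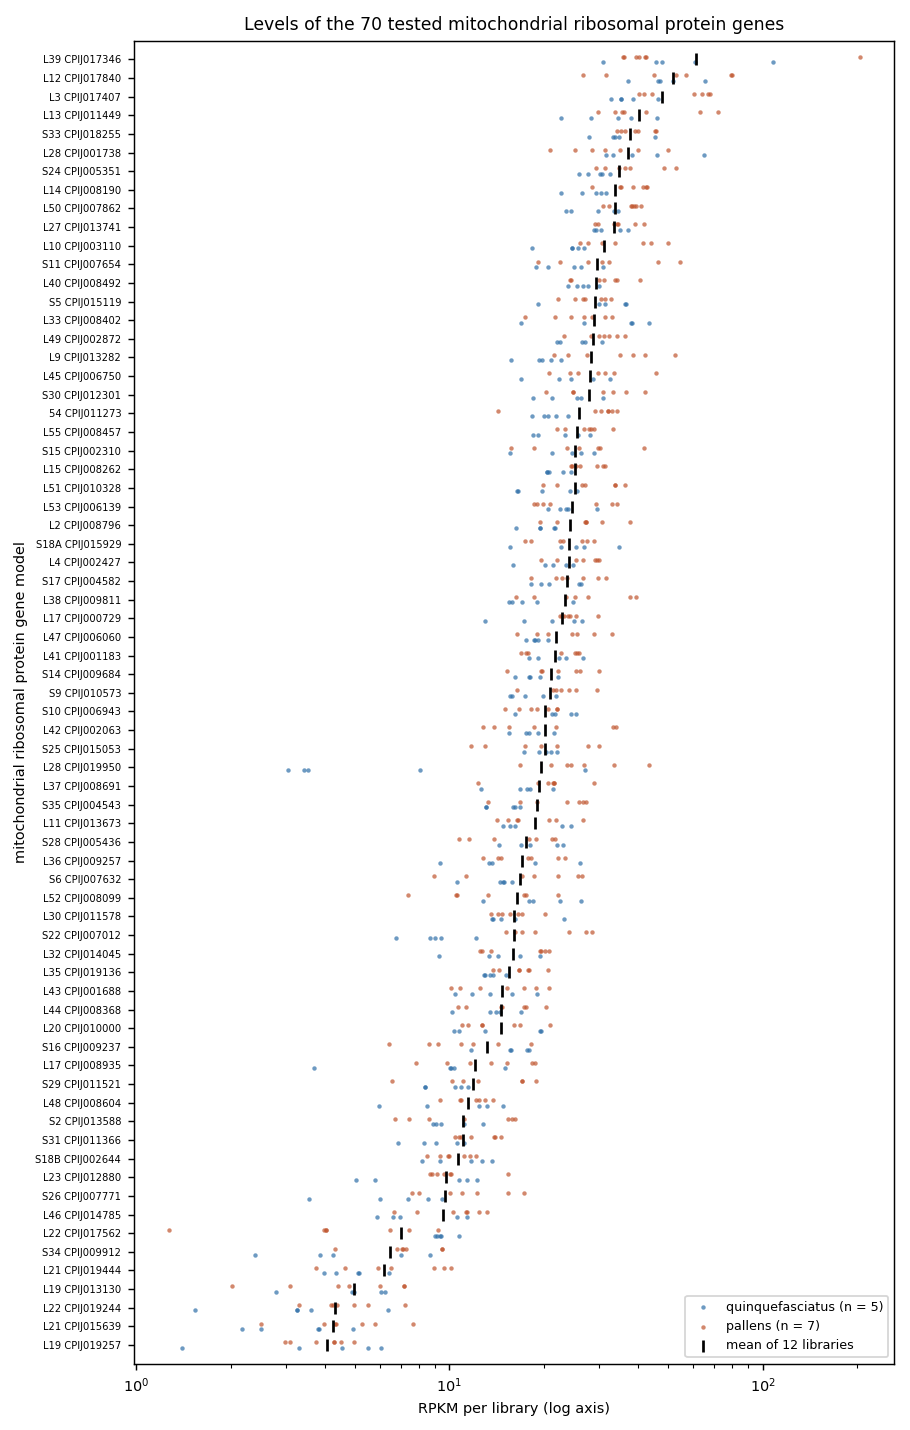
Deposited RPKM of each tested member in each library (horizontal, log axis), with quinquefasciatus in blue, pallens in red and the mean of 12 libraries as a black bar, ordered by that mean. The means run from 4.05 to 61.1 RPKM. L39, the short L28 model (CPIJ019950) and L22 (CPIJ017562, 1.27 to 10.7 RPKM) span wide ranges.

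The members also varied little among pools of 1 subspecies. The median SD within a subspecies was 0.29 on the scale of log2(CPM + 1), against 0.41 over all tested genes, 0.36 for cytosolic ribosomal proteins and 0.41 for the respiratory chain list. Of the 70 tested members, 67 had an SD under 0.5. The highest library exceeded the lowest by a median of 2.21 times, against 3.01 times over all tested genes. Level and depth bear on such spreads, and their part was not tested.

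The comparison of the subspecies asked which genes differed in larvae of pallens and quinquefasciatus. Of the 70 tested members, 1 was called, the small-subunit protein S22, which was higher in pallens, and 0 were called lower (edgeR quasi-likelihood test, Benjamini-Hochberg adjusted p under 0.05 over 10617 genes). Over all tested genes 0.537% were called, 0.339% higher and 0.198% lower in pallens. At an unadjusted p under 0.05, 13 members were higher and 1 was lower, or 18.6% and 1.43% of those tested, against 6.55% and 6.46% of all tested genes. DESeq2 called 3 members, S22, L9 and L3, and 2.78% of all tested genes. In limma-voom 2 were called, S22 and the short L28 model, against 0.867% of all.

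Most members leaned toward pallens by a small amount. The log2 change of pallens over quinquefasciatus was positive for 53 of the 70 tested members (75.7%) and for 52.5% of all tested genes. The median change was 0.21 for the members and 0.02 for all tested genes, and the members ranged from -0.94 to 1.44. The changes of 63 members were smaller than 0.5, and only 2 exceeded 1, a doubling. Standard errors of single changes had a median of 0.20 (0.12 to 0.55), so that most single changes were near the size of their error. The median stayed between 0.17 and 0.25 under all 26 alternative settings, with 50 to 58 members positive in those that tested 70. No test was made of the members as a group, and in bulk samples fewer cells of a type and less RNA per cell cannot be told apart.

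**Figure D3:**
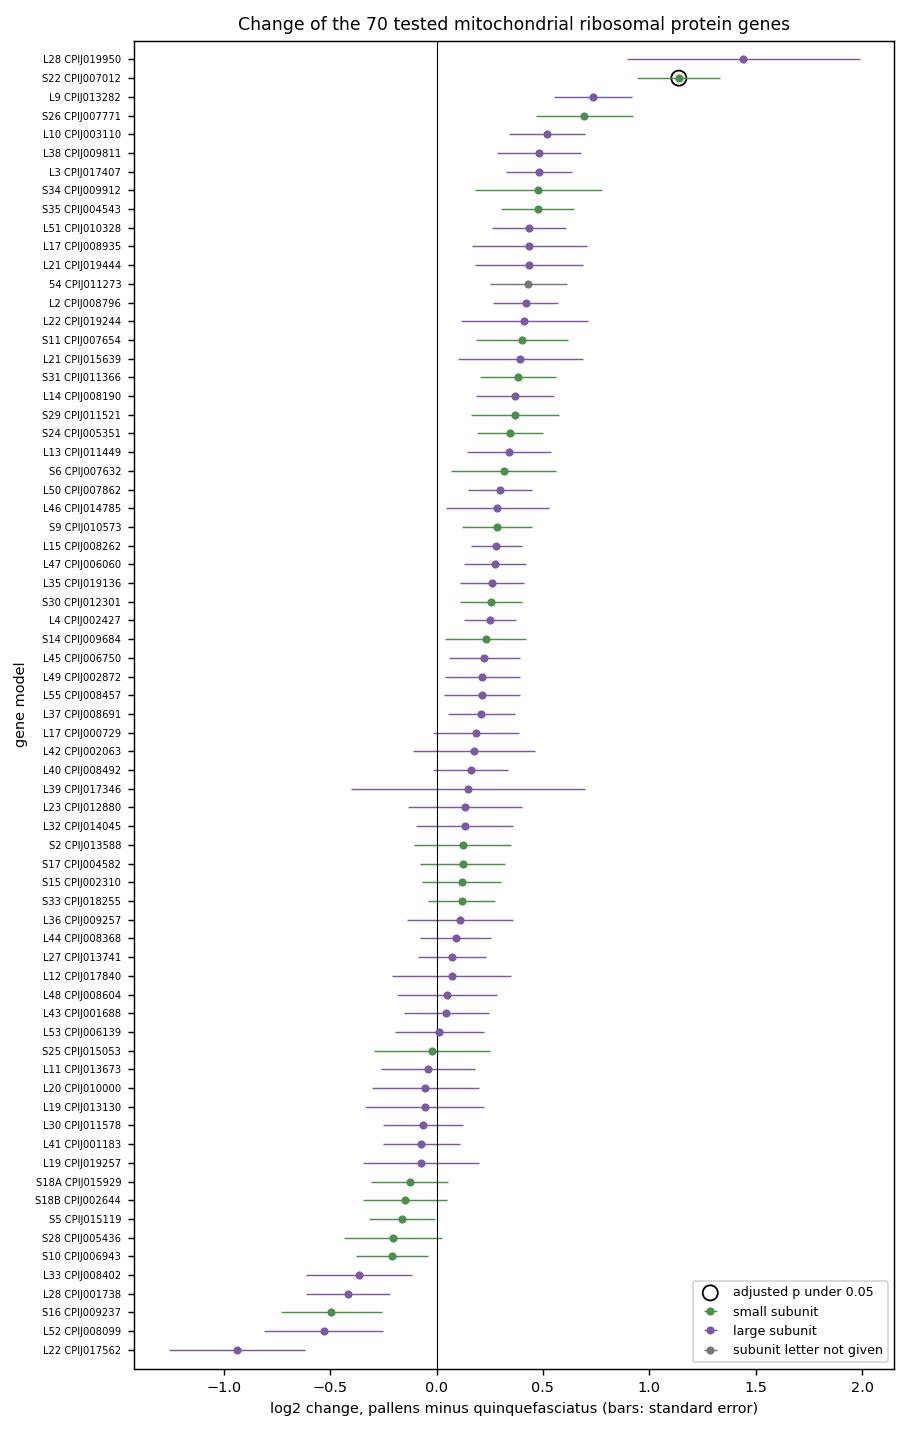
Log2 change of each tested member, pallens minus quinquefasciatus (horizontal), with its standard error, coloured by subunit and ordered by size. The changes run from -0.94 (L22, CPIJ017562) to 1.44 (L28, CPIJ019950), 53 of 70 are positive, and the circled S22 is the only member with an adjusted p under 0.05.

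Among the small-subunit genes, 16 of 23 tested had positive changes, with a median of 0.23. S22 (CPIJ007012), a small-subunit protein with no bacterial relative whose loss causes mitochondrial disease in humans, lies on supercont3.133 from 583236 to 584413 on the minus strand. Its levels in quinquefasciatus 1 to 5 were 9.36, 12.7, 9.29, 8.33 and 12.6 CPM, and in pallens they ran from 18.7 to 33.1 CPM with a median of 19.8 CPM. Every pallens library was thus above every quinquefasciatus library. This pattern, no overlap with pallens higher, was met by 2 members, S22 and L3, and by 0.725% of all tested genes. The reverse was met by 0 members and 0.499% of all tested genes, and either by 1.22%. The means were 22.99 ± 5.37 CPM (SD, n = 7) and 10.4 ± 2.03 CPM (n = 5), a 2.20-fold difference (log2 change 1.14, SE 0.19; edgeR adjusted p = 0.0244).

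The call for S22 rested on 39 to 137 reads per library and on several single libraries. It held in 21 of 26 alternative settings, with a log2 change between 1.03 and 1.25 in all of them. The edgeR adjusted p was 0.0981 without quinquefasciatus 1, 0.0824 without quinquefasciatus 3, 0.102 without quinquefasciatus 4 and 0.0878 without pallens 6 and 7 together, and 0.00941 without pallens 1 and quinquefasciatus 5. Reads covered 83.5% to 97.7% of the model in pallens and 63.5% to 85.2% in quinquefasciatus. The nearest gene, a histidine triad nucleotide-binding protein (CPIJ007013) that lies 195 bases away on the other strand, differed by -0.20 (log2; edgeR adjusted p = 0.762).

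The other small-subunit genes were not called. S26 (CPIJ007771), another protein found only in mitochondria, was at 5.54, 4.64, 5.90, 4.48 and 2.88 CPM in quinquefasciatus 1 to 5 and at 5.30 to 9.81 CPM in pallens (median 7.12 CPM). The subspecies overlapped, and the change was 0.69 (SE 0.23; edgeR adjusted p = 0.221) at a coverage of only 39.7% of the model. S35 (CPIJ004543), also specific to mitochondria, was at 17.001, 15.8, 12.7, 18.6 and 16.5 CPM in quinquefasciatus and at 16.4 to 30.5 CPM in pallens (median 23.5 CPM). Here too the ranges overlapped (log2 change 0.47, SE 0.17; edgeR adjusted p = 0.267). S16 (CPIJ009237), which in bacteria helps the small subunit assemble, had the most negative change of the small subunit, -0.49 (SE 0.24; edgeR adjusted p = 0.400), with 9.70 to 11.96 CPM in quinquefasciatus and 3.73 to 11.1 CPM in pallens.

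Several other small-subunit proteins had small changes. S5 (CPIJ015119), which in bacteria lines the entry path of the message, had a log2 change of -0.16 (SE 0.15). S2 (CPIJ013588), a protein of the bacterial type, had a change of 0.12 (SE 0.23). S15 (CPIJ002310), an early binder of the small ribosomal RNA in bacteria, had a change of 0.12 (SE 0.19). S29 (CPIJ011521), a GTP-binding protein known in humans as a death-associated protein, had a change of 0.37 at 11.5 ± 0.648 CPM in quinquefasciatus and 14.9 ± 4.38 CPM in pallens (edgeR adjusted p = 0.458).

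Large-subunit genes were called in 0 of 46 tests, at 8 higher and 1 lower with an unadjusted p under 0.05; 36 changes were positive, with a median of 0.20. L9 (CPIJ013282), which in bacteria sits at the base of the L1 stalk, was at 14.1, 14.97, 15.9, 13.2 and 18.1 CPM in quinquefasciatus 1 to 5 and at 17.9 to 33.7 CPM in pallens (median 26.003 CPM). Only quinquefasciatus 5 lay within the pallens range, just above pallens 5. The change was 0.74 (SE 0.18; edgeR adjusted p = 0.103), a 1.67-fold difference of 25.4 ± 5.92 CPM against 15.3 ± 1.86 CPM. The edgeR adjusted p was 0.0433 without pallens 1 and 0.0351 without pallens 1 and quinquefasciatus 5. The DESeq2 adjusted p over all libraries was 0.0136. These were the only 3 of 26 alternative settings that called L9. With 1 library left out, its edgeR adjusted p ran from 0.0433 to 0.280.

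L3 was at 42.8, 49.6, 34.8, 44.8 and 48.8 CPM in quinquefasciatus 1 to 5, and at 50.3 to 73.3 CPM in pallens (median 64.5 CPM). The subspecies did not overlap, though the highest quinquefasciatus and the lowest pallens library lay less than 1 CPM apart. The means of 61.6 ± 8.77 CPM and 44.2 ± 5.91 CPM differed 1.40-fold (log2 change 0.48, SE 0.155; edgeR adjusted p = 0.207; DESeq2 adjusted p = 0.0359). L3 was called in 1 of 26 alternative settings, and its edgeR adjusted p ran up to 0.425 with 1 library left out.

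L10 (CPIJ003110), which in bacteria anchors the stalk to the ribosome, was at 18.9, 19.0, 12.9, 20.7 and 22.5 CPM in quinquefasciatus 1 to 5 and at 20.9 to 33.7 CPM in pallens (median 26.7 CPM). Only quinquefasciatus 5 lay within the pallens range (log2 change 0.52, SE 0.18; edgeR adjusted p = 0.238). L12, its partner in the stalk, had a change of 0.07 (SE 0.28), and L11 (CPIJ013673), at the base of the stalk in bacteria, -0.04 (SE 0.22). L2 (CPIJ008796), close to the catalytic centre in bacteria, was at 17.99 ± 2.16 CPM in quinquefasciatus and 24.1 ± 3.78 CPM in pallens (log2 change 0.42, SE 0.15; edgeR adjusted p = 0.268). L51 (CPIJ010328), specific to mitochondria, was at 11.6 ± 1.58 CPM and 15.7 ± 3.16 CPM (log2 change 0.44, SE 0.17; edgeR adjusted p = 0.311). The remaining members with an unadjusted p under 0.05, named after their values were seen, were L38, L15, S24 and the unlettered protein 54, with log2 changes of 0.48, 0.28, 0.35 and 0.43.

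**Figure D4:**
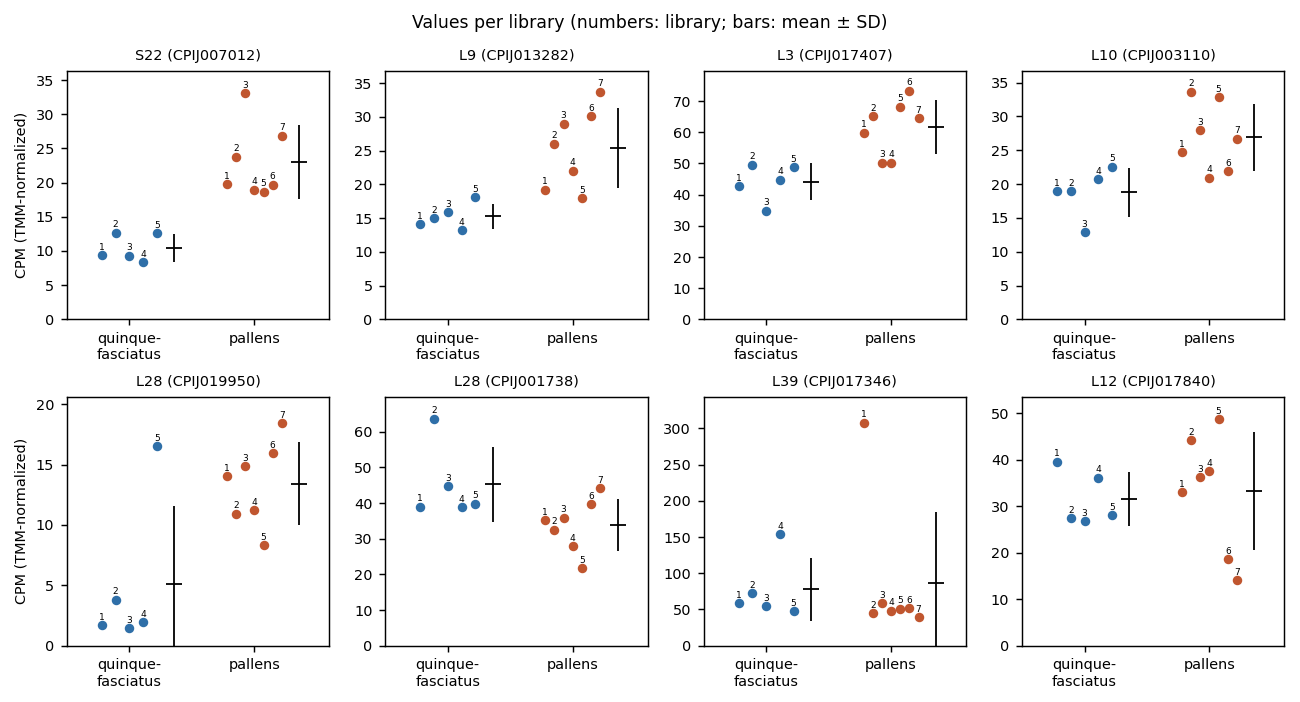
TMM-normalized CPM of 8 members in every library (numbers name the library), with mean ± SD beside each group, on axes that start at 0. S22 and L3 show no overlap between the subspecies, quinquefasciatus 5 lies among the pallens libraries for the short L28 model (CPIJ019950), and L39 has pallens 1 at 308 CPM and quinquefasciatus 4 at 154 CPM.

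L28, a bacterial-type protein of the large subunit, was annotated as a pair of models whose changes had opposite signs. The short model (CPIJ019950, 507 bases, supercont3.2416 from 17444 to 18717) was at 1.72, 3.80, 1.43 and 1.92 CPM in quinquefasciatus 1 to 4, but at 16.5 CPM in quinquefasciatus 5. Pallens ran from 8.33 to 18.4 CPM, with a median of 14.04 CPM. The first 4 quinquefasciatus libraries were thus below every pallens library, and the remaining one was inside the pallens range.

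Over all libraries the short L28 model was not called (log2 change 1.44, SE 0.55; edgeR adjusted p = 0.291). Without quinquefasciatus 5 the change was 2.59 (edgeR adjusted p = 0.00125), and without pallens 1 as well it was 2.58 (edgeR adjusted p = 0.00184). The model was called in 3 of 26 alternative settings, and its edgeR adjusted p ran up to 0.567 with 1 library left out. Reads covered 37.9% to 64.1% of it in pallens and 51.3% in quinquefasciatus 5, but 19.7% to 32.0% in quinquefasciatus 1 to 4.

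The long L28 model (CPIJ001738, 1054 bases, supercont3.25 from 837006 to 838269) was at 38.97, 63.7, 44.7, 38.9 and 39.8 CPM in quinquefasciatus 1 to 5 and at 21.7 to 44.1 CPM in pallens (median 35.1 CPM). These ranges overlapped (log2 change -0.42, SE 0.20; edgeR adjusted p = 0.389). Of the reads on both models, the long model took 70.5% to 74.9% in each pallens library and 94.4% to 96.9% in quinquefasciatus 1 to 4. In quinquefasciatus 5 it took 70.7% (152 reads against 63 on the short model; 95% Wilson interval 64.3% to 76.4%, counting error only). That interval lies below the lowest of the other quinquefasciatus libraries, 94.4% (91.3% to 96.4%). Pallens 1, at 71.4%, lay within the range of the other pallens libraries.

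The summed level of both L28 models overlapped between the subspecies. It was 47.2 ± 10.8 CPM (30.0 to 62.6) in pallens and 50.3 ± 11.5 CPM (40.7 to 67.5) in quinquefasciatus. The gene 44 bases from the short model on the other strand, an inosine triphosphate pyrophosphatase (CPIJ019949) too low to be tested, showed a like order. It was at 0.00, 0.00, 0.18, 0.21 and 1.57 CPM in quinquefasciatus 1 to 5 and at 0.66 to 3.496 CPM in pallens. The first 4 of these quinquefasciatus values lie under the level of 3 reads. The gene 693 bases away on the other side, TBC1 domain family member 19 (CPIJ019951), did not separate the subspecies in this way. It was at 1.72, 1.69, 1.25, 1.28 and 3.41 CPM in quinquefasciatus 1 to 5 and at 1.29 to 7.53 CPM in pallens (log2 change 1.07; edgeR adjusted p = 0.346). Why the split of L28 reads in quinquefasciatus 5 lay among those of pallens was not tested.

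The L22 pair also had changes of opposite sign. L22, which lines the exit tunnel in bacteria, had the most negative change of all tested members in CPIJ017562: 7.26, 6.12, 5.90, 7.26 and 7.60 CPM in quinquefasciatus 1 to 5 and 1.04 to 6.31 CPM in pallens (median 3.08 CPM; log2 change -0.94, SE 0.32; edgeR adjusted p = 0.236). Its partner CPIJ019244 had a change of 0.41 (SE 0.30; edgeR adjusted p = 0.556). CPIJ017562 took 59.2% to 85.3% of the pair's reads in quinquefasciatus and 22.2% to 63.6% in pallens, from totals of only 18 reads in the lowest case (pallens 1; 95% Wilson interval 9.001% to 45.2%), so the shares overlapped between the subspecies. Summed into 1 gene, the pair was at 9.37 ± 0.901 CPM in quinquefasciatus and 6.97 ± 2.47 CPM in pallens (log2 change -0.43; edgeR adjusted p = 0.443).

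In the other near-copy pairs that were tested the models had changes of the same sign. Summed, the L21 pair had a log2 change of 0.41 (edgeR adjusted p = 0.443) and the L19 pair -0.06 (edgeR adjusted p = 0.933). The L17 models CPIJ000729 and CPIJ008935, both well covered, had changes of 0.19 and 0.44 (edgeR adjusted p = 0.711 and 0.497). The read model of L23 (CPIJ012880) had a change of 0.13 and that of S11 (CPIJ007654) 0.40. Of the sparsely read S26 models, CPIJ019848 had reads in all 5 quinquefasciatus libraries (0.262 to 1.48 CPM) and in 5 of 7 pallens libraries (up to 0.780 CPM), while CPIJ002495 had none in quinquefasciatus and up to 0.520 CPM in pallens. Values this low lie near the level of 3 reads or below it.

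Among members averaging 3 or more in log2 CPM, L39, the short L28 model, L12 and L52 varied most within a subspecies, with SDs of 0.89, 0.80, 0.52 and 0.46 in log2(CPM + 1). L39 (supercont3.908 from 58017 to 59543) was at 59.0, 72.8, 54.1, 154 and 48.0 CPM in quinquefasciatus 1 to 5. In pallens it was at 308 CPM in pallens 1 and at 39.04 to 58.98 CPM in the other 6. These 2 high libraries held 1185 and 722 reads on the model, spread over 90.9% and 90.4% of its length, against 81.8% to 92.6% in all libraries. The subspecies means of 86.0 ± 98.1 CPM (pallens) and 77.6 ± 43.8 CPM differed by 0.15 on the log2 scale (SE 0.55; edgeR adjusted p = 0.933), which became -0.66 without pallens 1 (edgeR adjusted p = 0.227).

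L12 was at 39.5, 27.4, 26.8, 36.1 and 28.1 CPM in quinquefasciatus 1 to 5 and at 14.1 to 48.7 CPM in pallens (median 36.2 CPM), where pallens 6 (18.6 CPM) and pallens 7 (14.1 CPM) were the lowest of all 12 libraries. L52 (CPIJ008099), specific to mitochondria, was at 12.99, 6.12, 8.75, 12.8 and 11.01 CPM in quinquefasciatus and at 4.10 to 10.4 CPM in pallens (median 7.12 CPM). Its ranges overlapped (log2 change -0.53, SE 0.28; edgeR adjusted p = 0.436).

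Classed by the numbers in their names, members without a bacterial counterpart had positive changes in 23 of 26 tests (median 0.22) and members with one in 29 of 43 (median 0.13). The 9 tested small-subunit members of the first class, S22 among them, had a median of 0.38 with 8 positive. All 12 models of that class, tested or not, summed to 146 to 194 CPM in pallens and 113 to 132 CPM in quinquefasciatus. Large-subunit models with a bacterial counterpart did not overlap in their sum either, at 428 to 486 CPM in pallens and 339 to 410 CPM in quinquefasciatus. The sums of the remaining classes by subunit and counterpart overlapped. No test was made between the classes. The classes are of names, not of structures: L55 was counted with the bacterial class although it is known only from mitochondria, L47 with the other although it is related to bacterial L29, and in mammals the proteins named S18A and S30 sit in the large subunit.

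Library by library, the members deviated little. The median deviation of the 70 tested members from their own mean over 12 libraries, in log2(CPM + 1), was -0.06, -0.13, -0.26, 0.02 and -0.11 in quinquefasciatus 1 to 5. In pallens 1 to 7 it was 0.08, 0.07, 0.30, -0.06, 0.06, -0.01 and 0.04. Pallens 3 was the highest, with 62 of 70 members above their mean, and quinquefasciatus 3 the lowest, with 15 of 70. The subspecies overlapped, since pallens 4 and pallens 6 lay below quinquefasciatus 4. The summed level of all members was 930 to 1204 CPM in quinquefasciatus (1061 ± 98.5, n = 5) and 1072 to 1399 CPM in pallens (1218 ± 117, n = 7). L39 alone made up 308 CPM of the sum in pallens 1 and 154 CPM in quinquefasciatus 4. Both subunits deviated the same way in these libraries: in pallens 3 the medians were 0.27 for the small and 0.30 for the large subunit, and in quinquefasciatus 3 they were -0.22 and -0.28.

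**Figure D5:**
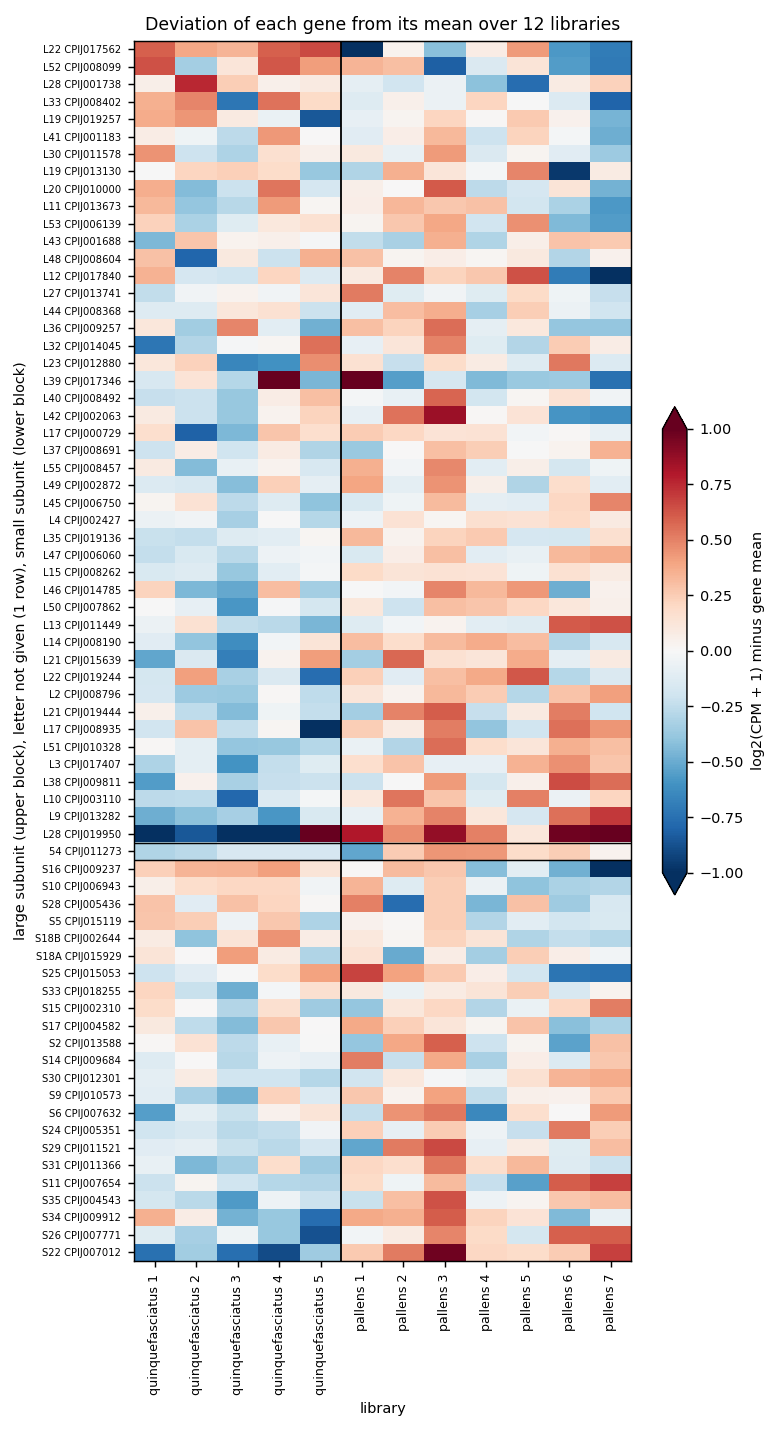
Deviation of each tested member (rows) from its mean over 12 libraries, in log2(CPM + 1), by library (columns), with red above and blue below the mean and colours saturating at 1 and -1. Pallens 3 is red and quinquefasciatus 3 blue across most rows of both subunits, while single cells such as L39 in pallens 1 saturate.

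Other lists stood highest in other libraries. Cytosolic ribosomal proteins had their highest median deviations in pallens 6 (0.66) and pallens 7 (0.53), where the mitochondrial ribosomal proteins were at -0.01 and 0.04. Respiratory chain genes had theirs in pallens 1 (0.58) and quinquefasciatus 5 (0.49), where the members were at 0.08 and -0.11. In pallens 3 all 3 lists were above their means (0.30, 0.29 and 0.22), and in quinquefasciatus 3 all 3 were below (-0.26, -0.32 and -0.31).

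Genes that work with the mitochondrial ribosome had changes of both signs. Of the 7 tested factors and aminoacyl-tRNA synthetases of mitochondrial translation 0 were called in edgeR, 3 changes were positive, and 1 gene had an unadjusted p under 0.05; DESeq2 called 0. That gene, the aspartyl-tRNA synthetase (CPIJ005915), which charges a tRNA for use in the mitochondrion, was at 20.4 ± 4.21 CPM in quinquefasciatus and 12.9 ± 2.88 CPM in pallens (log2 change -0.66, SE 0.19; edgeR adjusted p = 0.162). Elongation factor Tu (CPIJ002279), which delivers charged tRNA to the ribosome, had a change of -0.41 (SE 0.26; edgeR adjusted p = 0.497). Elongation factor G (CPIJ005834), which moves the ribosome along the message, had a change of 0.27 (SE 0.28; edgeR adjusted p = 0.687).

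For mitochondrial transcription and DNA upkeep 0 of 8 tested genes were called in edgeR, 3 changes were positive, and the median was -0.08. These values include an aminomethyltransferase (CPIJ014981, log2 change -0.12), taken up through its name, which is not a gene of transcription or DNA upkeep. The smallest p was that of the mitochondrial poly(A) RNA polymerase (CPIJ002001), which adds tails to mitochondrial transcripts, at 15.6 ± 2.49 CPM in quinquefasciatus and 20.6 ± 5.49 CPM in pallens (log2 change 0.40, SE 0.20; edgeR adjusted p = 0.412). For protein import 0 of 12 tested genes were called, 8 changes were positive, and the median was 0.18; the smallest p was that of Tim17-A (CPIJ003898), a channel subunit of the inner membrane, at 18.2 ± 6.30 CPM in quinquefasciatus and 13.5 ± 2.83 CPM in pallens (edgeR adjusted p = 0.416). In edgeR 0 genes of either list had an unadjusted p under 0.05, and 0 were called by DESeq2.

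For the respiratory chain and ATP synthase 0 of 74 tested genes were called in edgeR, 31 changes were positive, and the median was -0.03. The list includes 15 models of the vacuolar proton pump; without them 29 of 63 changes were positive and the median was -0.02. With an unadjusted p under 0.05 there was 1 gene higher and 1 lower. The lower gene, a NADH:ubiquinone dehydrogenase (CPIJ016783), was at 32.5 ± 11.6 CPM in quinquefasciatus and 11.8 ± 4.92 CPM in pallens (log2 change -1.45, SE 0.30; edgeR adjusted p = 0.0509). In this list 1 gene was called by DESeq2, and in edgeR 1 was called without pallens 1, 1 without pallens 2 and 2 without quinquefasciatus 5. DESeq2 called 2.78% of all tested genes. The edgeR calls over all tested genes were 230 without pallens 1, 32 without pallens 2 and 209 without quinquefasciatus 5.

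Cytosolic ribosomal proteins, of which 74 of 176 models were tested, had positive changes in 70 tests with a median of 0.32, and 1 was called, 40S ribosomal protein S10 (CPIJ007531), at 1.15 ± 0.314 CPM in quinquefasciatus and 3.52 ± 0.860 CPM in pallens (log2 change 1.58, SE 0.27; edgeR adjusted p = 0.0244). The S10 model was read at a low level: its lowest library, quinquefasciatus 1, was at 0.764 CPM, near the level of 3 reads. The tested genes of the list had a median of 2252 RPKM. In edgeR 0 genes of this list were called when any of pallens 3, 6 and 7 or quinquefasciatus 1 to 4 was left out. Without quinquefasciatus 5, 3 were called, against 209 over all tested genes. Another 4 genes carry bacterial-type names (50S or 30S) and were left out by the rule. Of these, S13P (CPIJ014165) and S8 (CPIJ006671) were at 1829 and 1270 CPM in pallens, far above any mitochondrial ribosomal protein. L1 (CPIJ001620) and S12 (CPIJ008389) were at 28.7 and 13.7 CPM, within the range of the members, with log2 changes of -0.24 and 0.06. The changes of S13P and S8 were 0.39 and 0.38. In edgeR 0 of the 4 were called and 0 had an unadjusted p under 0.05, and DESeq2 called 0.

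Markers of tissue and stage moved between libraries as well. Cuticle proteins, of the epidermis and the moult, summed to 1457 to 16631 CPM in quinquefasciatus and 1982 to 32984 CPM in pallens, with 0 of 70 tested genes called in edgeR, 10 higher and 0 lower at an unadjusted p under 0.05, and a median log2 change of 1.27. Their median deviation was highest in pallens 2 (2.81) and pallens 5 (2.38), where the mitochondrial ribosomal proteins were at 0.07 and 0.06. Larval storage proteins were lowest in pallens 6 (-2.18) and pallens 7 (-2.70), where L12 was low. Digestive proteases had a median log2 change of -0.45 (0 of 52 called in edgeR; 1 higher and 14 lower at an unadjusted p under 0.05) and muscle genes -0.01 (0 of 33 called; 6 higher and 2 lower). At that unadjusted threshold 6.55% of all tested genes were higher and 6.46% lower. The shares were 14.3% and 0% for cuticle proteins, 1.92% and 26.9% for digestive proteases, and 18.2% and 6.06% for muscle genes. The part of tissue makeup or larval age in the changes of the mitochondrial ribosomal proteins was not tested.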

How the data were processed

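RNA sequencing libraries of larval pools were analysed from 12 tables, 1 per library, grouped by the subspecies in the labels. The deposited counts are uniquely mapped reads per gene model, per the file headers. The aligner and counting tool were not stated, and the build is not given in the sources used here. The deposited RPKM values, per the file headers, are those counts per kilobase of model, scaled to the library's read total, and recomputing them from the counts gave the same values. The deposited percent coverage is the share of a model's length covered by reads, per the file headers. In all 12 libraries the counts added up to the header's total (3880000 to 5180000 reads, rounded to the nearest 10000). Lengths were divisible by 3 in 89.2% of models, which makes them mostly coding length. A model not listed for a library was set to 0. The RefSeq gene table provided held 0 of the gene identifiers, so descriptions are those of the files and no sequence is shown.

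In R 4.3.3, edgeR 4.0.16 was run on all gene models (filterByExpr, TMM scaling, robust quasi-likelihood test of subspecies, no covariate), leaving 10617 genes; a call is a Benjamini-Hochberg adjusted p under 0.05. Standard errors (SE) were derived from this test, as the size of the log2 change over the square root of the F statistic. The biological coefficient of variation was 42.0%. The fit was checked on simulated data. A total of 26 alternatives used edgeR, DESeq2 1.42.0, limma 3.58.1 or sva 3.50.0. Spreads within a subspecies used log2(CPM + 1). Nearness of a library to a subspecies was the distance to its mean over the other libraries on that scale, over genes called without the library. Shares of reads have 95% Wilson intervals; these and the level of 3 reads cover counting error only.

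Members and lists were chosen with earlier results of these data known. The genes named were every member called, the 10 with the smallest p, the 3 highest and 3 lowest in RPKM, the 4 with the largest SD within a subspecies among those averaging 3 or more in log2 CPM, members too low to test, models sharing a name, and from each other mitochondrial list the genes called and the one of smallest p. The other members and genes named were chosen after their values were seen, for their known roles or values. They are S29, S16, S5, S2, S15, L11, the aminomethyltransferase, and those of the mitochondrial factors and bacterial-type names.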

Additional observations from a re-analysis of the deposited data

Results flagged for a closer look

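In 48 groups of values, 6 held a library far from the others of its subspecies by Dixon's criterion, which chance meets in about 1 group in 20. That rate is no yardstick for these 6, since L39 and the short L28 model, which hold 3 of them, were among the members named for their large spread. The short L28 model (CPIJ019950) was at 16.5 CPM in quinquefasciatus 5, against 1.43 to 3.80 CPM in the other 4. L39 (CPIJ017346) was at 308 CPM in pallens 1, against 39.04 to 58.98 CPM in the other 6, and at 154 CPM in quinquefasciatus 4, against 48.0 to 72.8 CPM in the other 4. The long L28 model (CPIJ001738) was at 63.7 CPM in quinquefasciatus 2, against 38.9 to 44.7 CPM. S11 (CPIJ007654) was at 19.6 CPM in quinquefasciatus 2, against 15.5 to 16.6 CPM. The median deviation of the 70 tested members was 0.30 in pallens 3, against -0.06 to 0.08 in the other pallens libraries. The causes were not tested.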

How the results depend on the processing

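The median log2 change of the mitochondrial ribosomal proteins was positive in all 26 alternatives. The number of genes called, 57, became 2 at an adjusted p under 0.01, 295 with DESeq2, 92 with limma-voom, 107 and 111 with limma on log2(RPKM + 1) and log2(RPKM + 0.1), 5 without pallens 6 and 7, 366 without pallens 1 and quinquefasciatus 5, and 88 with 2 surrogate variables. Leaving out 1 library gave 9 to 230. The members called, 1, became 0 at 0.01, 3 with DESeq2, 2 with limma-voom, 0 without pallens 6 and 7, 3 without pallens 1 and quinquefasciatus 5 (S22, L9 and the short L28 model), and 0 to 2 with 1 library left out. For cytosolic ribosomal proteins, 1 became 0 at 0.01, 0 without pallens 6 and 7, 3 without pallens 1 and quinquefasciatus 5, and 0 to 3 with 1 library left out. For the respiratory chain, 0 became 1 with no filter, DESeq2, limma-voom, either RPKM scale or surrogate variables, 2 without pallens 1 and quinquefasciatus 5, and 0 to 2 with 1 library left out.

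Of 595 values for 23 named models, 19 changed sign, in 5 models, all with small changes. L39 (0.15) was at -0.63 with DESeq2, -0.14 with limma-voom, -0.10 and -0.11 on the RPKM scales, -0.80 without pallens 1 and quinquefasciatus 5, and -0.66 to 0.56 with 1 library left out. L12 (0.07) was at -0.022 with limma-voom and at -0.041 to 0.21 with 1 library left out. L19 CPIJ019257 (-0.07) was at 0.029 and 0.070 on the RPKM scales, 0.026 without pallens 6 and 7, and -0.26 to 0.060 with 1 library left out. L19 CPIJ013130 (-0.06) was at 0.10 without pallens 6 and 7, and -0.17 to 0.085 with 1 library left out. L23 CPIJ012880 (0.13) was at -0.017 to 0.31 with 1 library left out. Where values moved with fewer libraries, the design itself holds fewer samples; the cause was otherwise not tested. Summing near-copy pairs was chosen after seeing the data and left the calls within 1.5 times. No paired analysis was possible because the replicate numbers are accession order and pair no libraries. Depth limits members with few reads, and unique counting limits models with near copies.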
